A study of Mus musculus with 3 samples.

Results

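The contractile apparatus genes examined here are 10 genes that build or regulate the contractile machinery of smooth muscle: Acta2, Actg2, Myh11, Tagln, Cnn1, Des, Smtn, Lmod1, Synpo2 and Mylk. They were chosen by symbol, and all 10 were found once among the 31053 genes of a single-cell RNA sequencing matrix of mouse gallbladder. In GRCm38 with GENCODE M21, Acta2 lies at chr19:34241090-34255590, Actg2 at chr6:83512905-83536265, Myh11 at chr16:14194535-14291372, Tagln at chr9:45929619-45936058, Smtn at chr11:3517523-3540612 and Synpo2 at chr3:123076519-123236149, all on the minus strand. On the plus strand are Cnn1 at chr9:22099216-22109630, Des at chr1:75360329-75368579, Lmod1 at chr1:135324807-135368065 and Mylk at chr16:34745210-35002420. Their levels were read in muscle cells, pericytes, fibroblasts, mesothelium and the other cell classes, and separately in each of the 3 libraries that the cell barcodes tell apart. The study's groups were male C57BL/6 mice given vehicle by oral gavage for 6 weeks, nanoplastics for 3 weeks, or nanoplastics for 6 weeks, with 10 gallbladders pooled per group and dissociated with trypsin, so that each group is 1 library. Neither the labels nor the files say which barcode suffix belongs to which group, so no library is assigned to a group here and no effect of exposure is given.

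Smooth muscle of the gallbladder wall contracts to expel bile. Calcium entering the cell binds calmodulin, which activates myosin light chain kinase, and the phosphorylated myosin then pulls on actin filaments. In smooth muscle, many genes of this machinery are activated by serum response factor with its coactivator myocardin at a DNA element called the CArG box, in which CC and GG enclose a run of A and T.

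The stretch before a gene's transcription start, where such elements are often found, is shown for Cnn1, which differed between the muscle kinds described below, and for Acta2 and Mylk, which did not differ by 2-fold and hold motif matches. Sequences are from RefSeq on build GRCm38.p6 and are written along the gene's strand. A window of 250 bases before the start was searched in the 7 members that have one in the table used (Acta2, Cnn1, Des, Lmod1, Mylk, Smtn and Synpo2). Capitals mark the matches.

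Acta2, first CArG-like match: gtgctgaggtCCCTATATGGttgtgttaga
Acta2, second CArG-like match: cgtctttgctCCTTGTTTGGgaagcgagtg
Acta2, MCAT match: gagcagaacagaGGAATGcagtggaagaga
Mylk, up to its annotated exon: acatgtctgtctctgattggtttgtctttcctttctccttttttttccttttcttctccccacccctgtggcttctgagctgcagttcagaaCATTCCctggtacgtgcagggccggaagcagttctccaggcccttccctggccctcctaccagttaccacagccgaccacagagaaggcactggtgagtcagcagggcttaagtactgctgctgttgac
Cnn1, up to its annotated exon: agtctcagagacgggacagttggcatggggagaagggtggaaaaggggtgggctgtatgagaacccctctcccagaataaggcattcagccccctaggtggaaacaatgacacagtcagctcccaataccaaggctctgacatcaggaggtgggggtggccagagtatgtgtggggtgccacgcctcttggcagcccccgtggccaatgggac

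The Acta2 sites lie on the minus strand at chr19:34255438-34255467, chr19:34255388-34255417 and chr19:34255502-34255531, the Mylk stretch at chr16:34784700-34784920 and the Cnn1 stretch at chr9:22099003-22099215, both on the plus strand. GENCODE M21 places the Acta2 sites inside an annotated 5′ untranslated exon, so only 30 bases around each are shown, and the Mylk stretch inside an intron of a longer Mylk transcript. A full CArG box, with 6 of 6 inner bases A or T, was in none of the 7 windows and in 1.47% of all 32851 promoters. With at least 5 of 6 inner bases A or T, a looser form chosen after the strict search, Acta2 held 2 matches, beginning 84 and 34 bases before the start, and the other 6 members held 0. Of all promoters, 8.59% held at least 1 such match and 0.670% held 2 or more. The MCAT element, CATTCC on either strand, which TEAD factors bind and which was also added after the first search, was in 4 of the 7 windows (Acta2, Lmod1, Mylk and Smtn) and in 12.6% of all promoters. The motifs overlap nowhere in these windows, and a match is a string of letters, not a measured binding site.

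After filtering, 24993 of 27700 cells were kept, 4263, 10933 and 9797 in libraries 1, 2 and 3. Their median depths were 10381, 9330 and 2288 UMIs, the unique molecular identifiers that count captured RNA molecules, and 54 barcode sequences occurred in 2 libraries. Clusters were named from markers that exclude the 10 members. Muscle was split into 2 kinds by the balance of Actg2 and Des against Sparcl1 and Mustn1: 911 cells of Actg2/Des muscle (146, 274 and 491 by library) and 663 cells of Sparcl1/Mustn1 muscle (35, 50 and 578). Both kinds carried the muscle markers, with 15 and 14 of 15 at 10 CPM or more, where CPM is the usual scaling of a gene's UMIs, summed over the cells of a class, to the summed UMIs of all genes. Sparcl1/Mustn1 muscle rests mostly on library 3, which had the shallowest cells. Levels are given with exact Poisson 95% intervals in brackets, which cover counting error only, and no p-value is given because a library is a single preparation.

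All 10 members had their highest level in a muscle kind, where 10.9% of 12014 genes did. Actg2/Des muscle was the highest class for 9 (4.15% of genes), among them Actg2 and Des, whose levels made this class, and Sparcl1/Mustn1 muscle for 1, Smtn (6.76%). The summed level of the 10 was 41252 CPM in Actg2/Des muscle (46203, 45075 and 35604 in libraries 1, 2 and 3) and 28365 CPM in Sparcl1/Mustn1 muscle (31834, 28230 and 27776). It was 3570 CPM in pericytes, the contractile cells that wrap capillaries. Droplets can also hold RNA released from broken cells, so levels outside muscle are set beside those of immune cells, where the 10 members summed to 105, 99.0 and 629 CPM. Library 3 had the highest immune level. The sum was 57.5 CPM in epithelium. Among the immune cells it was 207.3 CPM in T cells (112.8, 106.4 and 839.0 by library) and 413.9 CPM in neutrophils (210.5, 199.3 and 1022). The immune reference thus differs between its own cell types, and how much released RNA other classes hold was not tested.

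**Figure D1:**
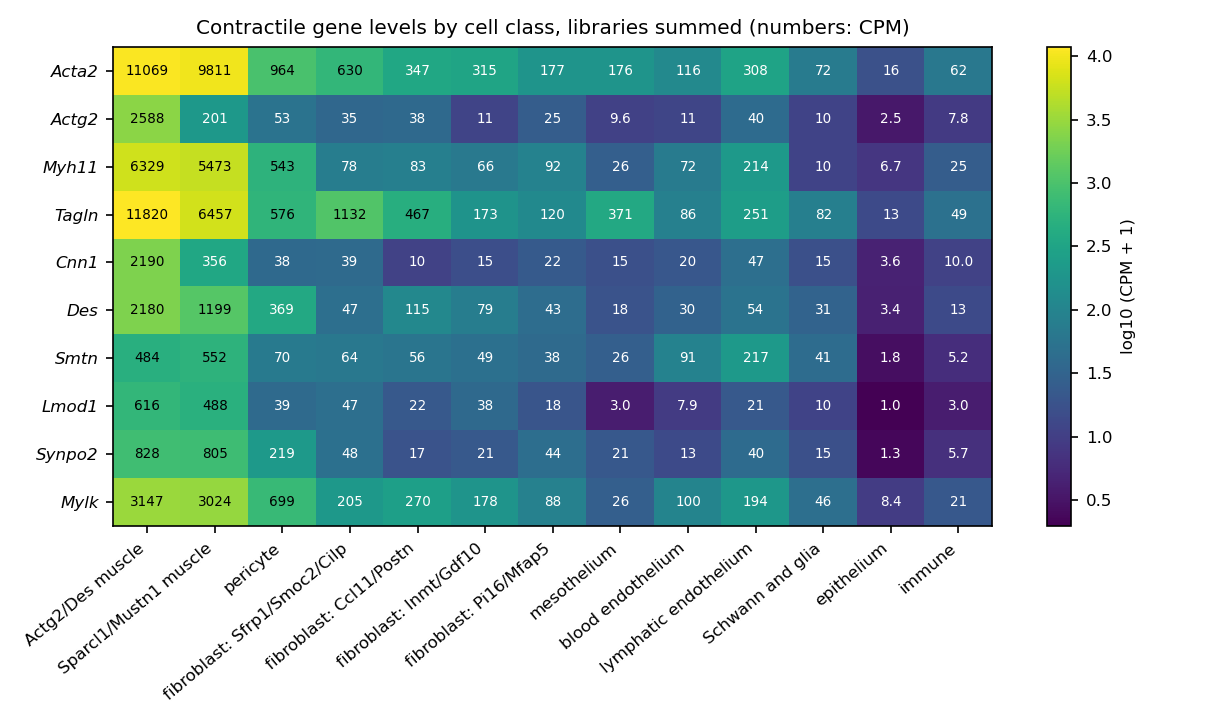
Level of each of the 10 genes (rows) in 13 cell classes (columns), as CPM of UMIs summed over the 3 libraries; colour is log10 of CPM + 1 and the printed numbers are CPM. Every gene is highest in 1 of the 2 left columns, and Actg2 and Cnn1 fall from 2588 and 2190 CPM in the first column to 201 and 356 CPM in the second.

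Of the 8 members that did not define the muscle kinds, 1, Cnn1, was at least 2-fold higher in Actg2/Des muscle and 0 were lower, where 14.8% of all 8875 genes tested were higher and 15% lower. A count of 1 of 8 is near that background. With the defining genes included, 2 of 10 were higher. Within libraries 1, 2 and 3 the count was again 1 of 8, Cnn1 each time, where 14.8%, 9.62% and 15.7% of genes were. Cnn1 encodes calponin, an actin-binding protein that restrains the myosin motor. Its level was 2909.6 (2836.6 to 2984.0), 2185.9 (2119.0 to 2254.3) and 1706.4 (1660.5 to 1753.3) CPM in libraries 1, 2 and 3 of Actg2/Des muscle, and 387.6 (320.3 to 464.9), 424.1 (328.7 to 538.6) and 343.7 (316.6 to 372.5) CPM in Sparcl1/Mustn1 muscle. The counting intervals of the kinds did not overlap for Cnn1 in any library, and the ratio was 7.51, 5.15 and 4.97. For how many of all genes such intervals stay apart was not computed, so this does not single out Cnn1. Actg2, the enteric form of smooth muscle actin, helped to choose the kinds, so its values are a description: 3181.2, 3056.0 and 1906.5 CPM against 320.8, 493.7 and 153.0 CPM.

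Filament proteins behaved differently from each other. Acta2, the vascular form of smooth muscle actin, was at 11042, 12991 and 9928.1 CPM in Actg2/Des muscle and at 10062, 8241.2 and 9911.0 CPM in Sparcl1/Mustn1 muscle, a ratio of 1.10, 1.58 and 1.0. In library 3 the intervals for Acta2 in the kinds overlapped, 9816.9 to 10040 against 9763.0 to 10061 CPM. Des, the intermediate filament protein desmin that links contractile units, had ratios of 2.44, 1.71 and 1.87, and it too defined the kinds. Myh11, the smooth muscle myosin heavy chain, had ratios of 1.09, 1.13 and 1.03.

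The ratios of the remaining members lay within 2-fold in every library. Tagln, or transgelin, an actin cross-linker, had the largest of these ratios at 1.66, 1.65 and 1.37. Lmod1, leiomodin, which nucleates actin filaments, followed with 1.35, 1.40 and 1.21, and Synpo2, a Z-disc and actin-bundling protein, with 1.20, 1.10 and 1.31. Mylk, the myosin light chain kinase, was at 0.991, 0.961 and 1.30. The Mylk ratio was thus just under 1 in libraries 1 and 2, where Sparcl1/Mustn1 muscle held 832 and 329 Mylk UMIs, and above 1 in library 3. For Smtn, or smoothelin, an actin-binding protein, the side of 1 also varied. Smtn was higher in Actg2/Des muscle in libraries 1 and 2 (437.3 against 337.5 CPM, and 381.3 against 265.8 CPM) and lower in library 3 (577.0 against 614.9 CPM). The Smtn intervals of the kinds overlapped in each library, in library 3 at 550.4 to 604.5 against 578.4 to 653.0 CPM. The pooled Smtn ratio of 0.877 lies below the ratio in every library, since the kinds draw unequally on the libraries. With each library weighing the same the log2 ratio was 0.20. The pooled median over the 8 members that did not define the kinds was 0.19 on the log2 scale, against -0.02 over all genes tested. Within libraries 1, 2 and 3 the median of these members was higher, at 0.32, 0.50 and 0.33.

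**Figure D2:**
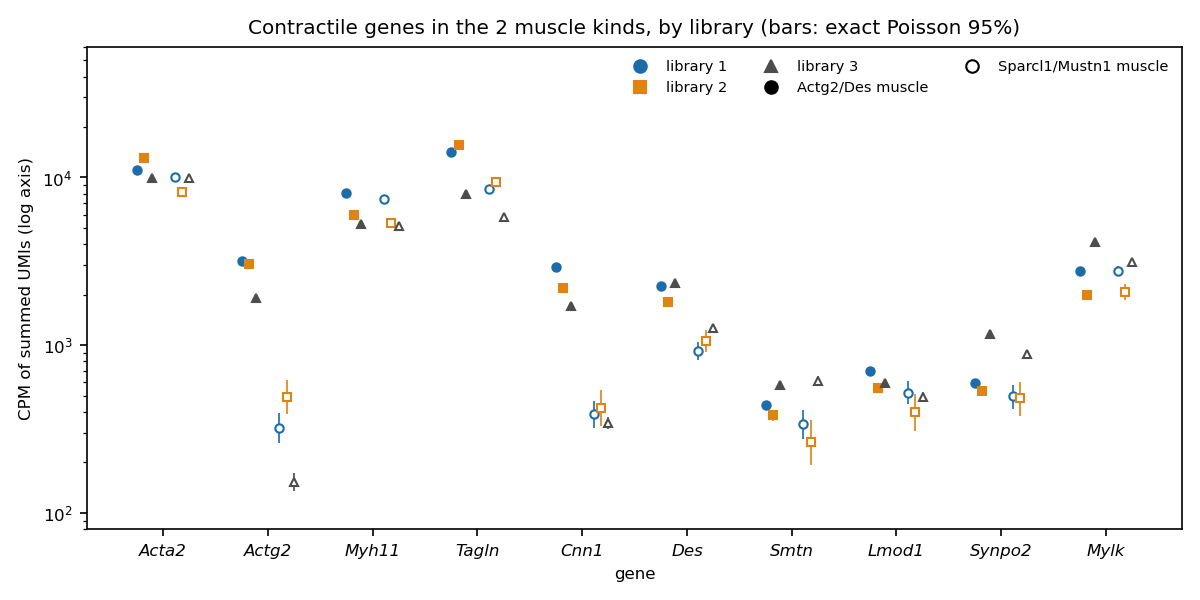
CPM (log axis) of each gene in Actg2/Des muscle (filled) and Sparcl1/Mustn1 muscle (open), 1 symbol per library with its exact Poisson 95% interval. Actg2 and Cnn1 are separated in all 3 libraries, while for Mylk and Myh11 the filled and open symbols of a library lie close together.

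Shares of cells with a UMI are given for Actg2 and Cnn1. With every cell thinned to 1000 UMIs, which left out 22 and 26 shallower cells, Actg2 was seen in 72.3% (69.3 to 75.2, exact binomial 95%) of Actg2/Des cells and in 12.2% (9.8 to 15) of Sparcl1/Mustn1 cells. Cnn1 was seen in 65.4% (62.1 to 68.5) and 23.7% (20.5 to 27.2). Before thinning the shares were 91.5% and 30.6% for Actg2 and 90.1% and 47.5% for Cnn1. For immune cells the thinned shares were 0.989% and 1.15%, and their own shallower cells left out numbered 1372. Acta2 was seen in 99.3% and 98.7% of the kinds, against 21.6% of pericytes and 7.32% of immune cells. Of the 10 members, a cell showed a median of 7 in Actg2/Des muscle, 6 in Sparcl1/Mustn1 muscle and 2 in pericytes.

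The actin genes give the difference as a composition. Actg2 made up 15.4%, 13.5% and 9.52% of the UMIs of 6 actin genes in Actg2/Des muscle of libraries 1, 2 and 3, and 2.02%, 3.63% and 0.887% in Sparcl1/Mustn1 muscle. In pericytes the pooled share was 1.28%. The actins are near-identical in sequence, and how the authors' counting split reads among them is not given in the sources used here.

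Subclusters within Actg2/Des muscle differed in several members together. In library 3, the subcluster of 228 cells held 3437 CPM of Des, 2506 of Cnn1 and 2713 of Actg2, and the subcluster of 183 cells held 1333, 802.7 and 955.0. Tagln was at 10387 against 5581 CPM in the same pair, while Smtn was at 608.2 against 583.2 CPM. A further subcluster, of 165 cells, had less Des in every library, at 531.1, 383.2 and 870.6 CPM, with Myh11 at 8269, 5038 and 4334 CPM. It also had more of the fibroblast collagen gene Col1a1, at 1490 CPM against 500.4 to 773.4 CPM in the other Actg2/Des subclusters, and the part of this in its Des level was not tested. These subclusters were cut from the same cells, so their differences are a description.

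**Figure D3:**
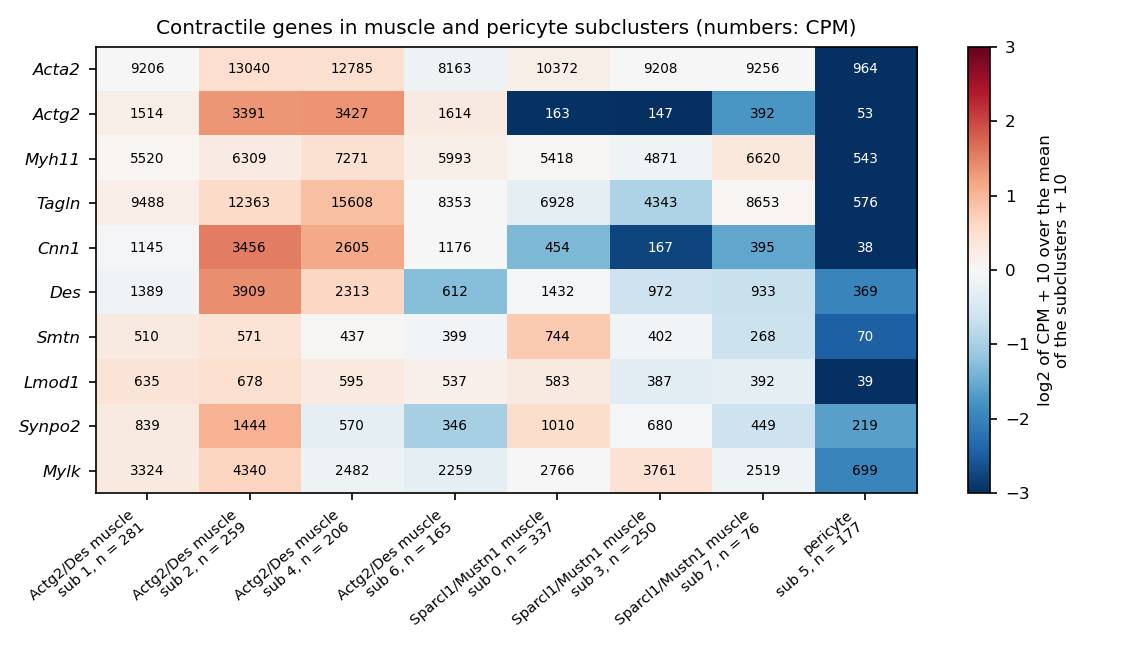
CPM (numbers) of the 10 genes in the subclusters of muscle and pericytes, with the number of cells under each column; colour is log2 of CPM + 10 over the mean of the columns + 10. Des ranges from 612 to 3909 CPM among the Actg2/Des subclusters, and Lmod1 from 537 to 678 CPM.

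Across single cells thinned to the same depth, Acta2 and Tagln moved together most in Actg2/Des muscle, with a Pearson correlation of 0.67, 0.61 and 0.54 over 141, 272 and 476 cells of libraries 1, 2 and 3. Cnn1 and Smtn had correlations of -0.05, -0.03 and 0.03. The thinned cells held only 57, 99 and 272 UMIs of Smtn, against 1491, 3327 and 4633 of Acta2. Counts this low draw a correlation towards 0, so the values of these pairs cannot be compared directly. In Sparcl1/Mustn1 muscle of library 3, over 556 cells, Acta2 and Tagln had 0.41. Cells of a library share its preparation, so these values describe the cells and carry no p.

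Pericytes had all 10 members at lower levels than either muscle kind. All 10 were at least 2-fold higher in Sparcl1/Mustn1 muscle than in pericytes, where 21.2% of genes were, and all 10 in Actg2/Des muscle, where 22.3% were. Within libraries 1, 2 and 3, Sparcl1/Mustn1 muscle was again higher for 10 of 10, where 13.2%, 16.4% and 5.1% of genes were. In library 3 the pericytes were only 31 cells, with 2, 1 and 0 UMIs of Actg2, Cnn1 and Lmod1. The ratios of these genes there rest on a floor of 3 UMIs. That floor also keeps genes at a low level in muscle from passing, which lowers the 5.1%. On pooled values the ratios of Sparcl1/Mustn1 muscle over pericytes ran from 3.25 for Des to 12.4 for Lmod1. They ran from 2.20 for Synpo2 to 21.1 for Cnn1 within library 1, and from 2.21 for Synpo2 to 17.6 for Myh11 within library 2. Within library 3 they ran from 2.61 for Actg2, at the floor, to 10.6 for Acta2. Acta2 was at 976.7, 937.7 and 939.1 CPM in pericytes of libraries 1, 2 and 3, a spread smaller than the intervals, and Mylk at 719.3, 640.4 and 723.9 CPM. Per 100 Acta2 UMIs, pericytes had 72.5 of Mylk and 38.3 of Des, compared with 30.8 and 12.2 in Sparcl1/Mustn1 muscle. Against the 4 fibroblast subsets together, pericytes had 6 of 10 members at 2-fold or more, where 8.69% of genes were: Synpo2 (8.17), Myh11 (6.75), Des (4.15), Mylk (3.08), Acta2 (2.49) and Cnn1 (2.12). This count pools libraries. Of these genes, Synpo2, Myh11, Des and Mylk passed 2-fold within each library. The share of all genes that did so was not computed, and Synpo2 in library 3 rests on 9 pericyte UMIs. In library 3 Acta2 was at 939.1 against 493.1 CPM, under 2-fold. Cnn1 was at 18.4, 91.5 and 19.6 CPM, from 8, 16 and 1 UMIs, against 9.30, 5.21 and 30.7 CPM in fibroblasts. Notch3, a receptor of mural cells around vessels, stood at 766.5 CPM in Sparcl1/Mustn1 muscle, 806.2 CPM in pericytes and 4.15 CPM in Actg2/Des muscle. Rgs5, which marks pericytes, stood at 1323, 10623 and 125.5 CPM in the same order. The Sparcl1/Mustn1 subclusters differed in it: the one of 337 cells had 32.3 CPM of Rgs5, and those of 250 and 76 cells had 2993 and 2127 CPM. The subclusters of 337 and 250 cells lay almost wholly in library 3 (329 and 247 cells). The one of 76 cells lay mostly in libraries 1 and 2 (31 and 43 cells). Library values of this muscle kind thus rest largely on different subclusters.

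Fibroblasts held 9 of the 10 members at 2-fold or more over immune cells, where 26.8% of genes were, and Cnn1 was the exception. This pooled count mixes libraries in unequal shares. Within libraries 1 and 2 it was 9 of 9 tested members (25.9% and 27.3% of genes), and within library 3 it was 5 of 10, Acta2, Tagln, Smtn, Lmod1 and Mylk (19.9%). In libraries 1 and 2 Cnn1 was too low to be tested, at 9.30 and 5.21 CPM in fibroblasts. Actg2, Des, Smtn, Lmod1 and Synpo2 were under 10 CPM in immune cells there and entered only through fibroblasts. The filter thus partly set the 9 of 9. The highest fibroblast levels were of Tagln in the Sfrp1/Smoc2/Cilp subset: 1419, 755.1 and 1129 CPM in libraries 1, 2 and 3, against 33.2, 26.8 and 130.5 CPM in immune cells. Acta2 there was at 345.8, 195.9 and 824.5 CPM, so the library order of the genes differed. Myh11 in the same cells was at 35.2, 46.2 and 99.0 CPM, close to the immune 79.0 CPM in library 3. Tagln per 100 Acta2 UMIs was 410, 385 and 137 in this subset and 129, 120 and 80.3 in Actg2/Des muscle. Against the Inmt/Gdf10 subset, the Ccl11/Postn subset had 2 of 10 members at 2-fold or more, Actg2 (3.51) and Tagln (2.70), where 6.07% of genes were. This count too is pooled, and the Inmt/Gdf10 cells numbered 47, 35 and 967 by library. Tagln was at 592.4, 316.3 and 416.0 CPM against 361.3, 196.0 and 148.4 CPM, past 2-fold only in library 3. Actg2 in the Inmt/Gdf10 subset rests on 3, 0 and 28 UMIs. The Ccl11/Postn cells held Des at 130.5, 95.6 and 110.0 CPM, and Mylk at 294.2, 223.4 and 290.9 CPM.

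Mesothelium, the outer lining of the organ, held 4 of 8 tested members at 2-fold or more over immune cells, Acta2, Tagln, Smtn and Synpo2, where 29.5% of genes were. The count did not hold within every library: it was 3 of 5 tested in library 1 (26.0% of genes), 2 of 3 in library 2 (24.6%) and 0 of 9 in library 3 (21.3%), which holds 452 of the 563 cells. Tagln led with 650.5, 531.2 and 254.8 CPM in libraries 1, 2 and 3. Acta2 was at 225.1, 87.7 and 176.5 CPM, above the immune 23.6 and 28.1 CPM in libraries 1 and 2 and below the immune 219.6 CPM in library 3. With each library weighing the same, 2 members passed instead of 4. Myh11 was at 4.79, 3.25 and 37.3 CPM, below the immune level in all 3 libraries. Of the 9 members that could be compared between libraries in mesothelium, 9 spread by 2-fold or more, where 28.1% of genes did. In libraries 1 and 2 several of these rest on few UMIs: Actg2 on 7 and 2, Myh11 on 5 and 2, Cnn1 on 7 and 2 and Mylk on 3 and 4. Acta2 and Tagln had 54 or more.

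Smtn had the highest level over immune cells among the members in endothelium. Libraries 1, 2 and 3 of blood endothelium held 70.1, 60.4 and 121.3 CPM of Smtn, and their immune cells 3.33, 1.89 and 16.3 CPM, while Acta2 was at 19.1, 17.0 and 238.3 CPM against 23.6, 28.1 and 219.6 CPM. Smtn therefore stood above the immune level in all 3 libraries, and Acta2 did not in libraries 1 and 2. Lymphatic endothelium had Smtn at 199.1 CPM in library 1 and 220.0 CPM in library 3, from 25 and 294 UMIs. Mylk too was above the immune level in blood endothelium, by 7.07, 8.60 and 1.92 times, and in lymphatic endothelium by 13.4 times in library 1 and 2.89 times in library 3. In blood endothelium 5 of 9 tested members were at 2-fold or more over immune cells (27.9% of genes), and in lymphatic endothelium 10 of 10 (31.1%). Within libraries 1, 2 and 3 blood endothelium had 4 of 6, 3 of 5 and 1 of 10 tested members (24.6%, 23.1% and 17.4% of genes), Smtn each time among them. Lymphatic endothelium had 4 of 5 in library 1 (25.4%) and 7 of 10 in library 3 (17.2%), without Acta2, Cnn1 and Des. Epithelium was lower than immune cells in 5 of 5 tested members, where 21.0% of genes were. Of these, Myh11, Des and Mylk, at 6.71, 3.35 and 8.43 CPM in epithelium, reached 10 CPM only in immune cells. Members under 10 CPM in both classes were not tested, so the filter favoured this count. Median depth was 13628 UMIs in epithelium and 1899 in immune cells, and its part was not tested.

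**Figure D4:**
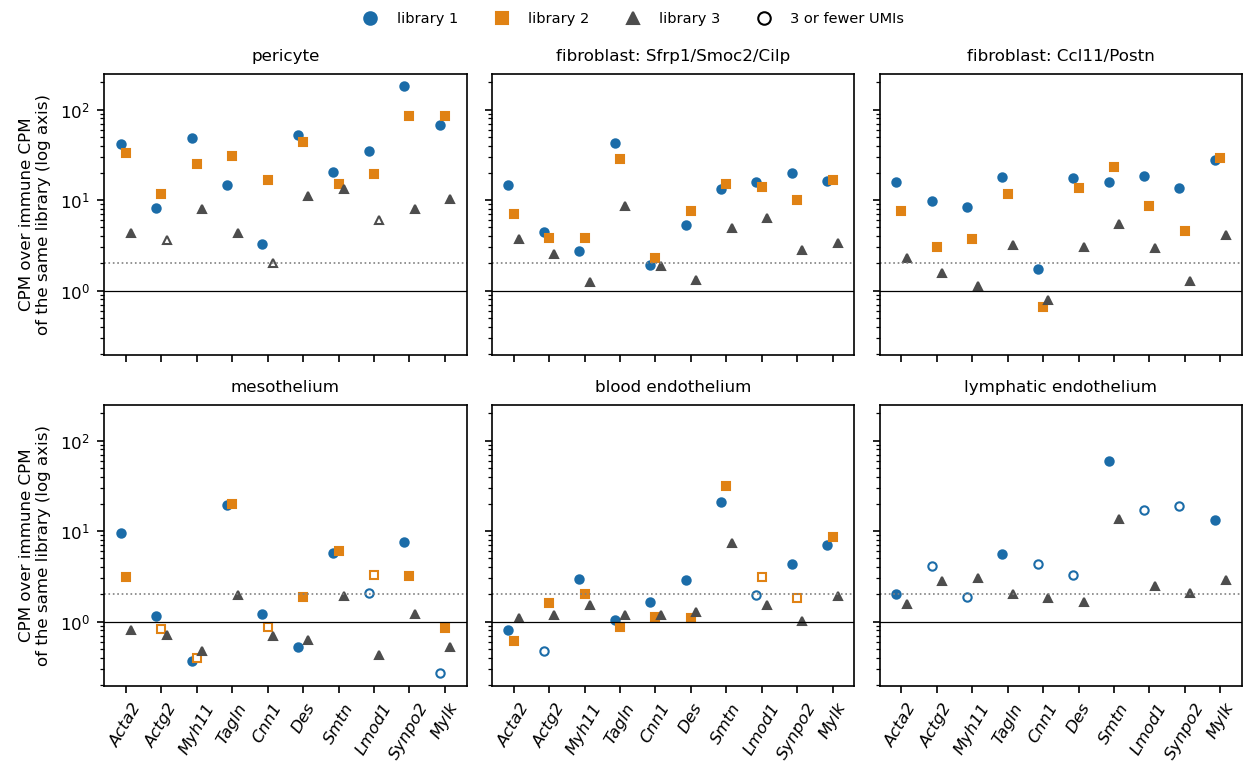
CPM of each gene in 6 classes divided by CPM in immune cells of the same library (log axis), 1 symbol per library with 20 or more cells of the class; open symbols rest on 3 or fewer UMIs, the solid line marks 1 and the dotted line 2. Smtn lies above the dotted line in blood and lymphatic endothelium in each library shown, and library 3 lies lower than the other libraries for most genes.

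Library values within Actg2/Des muscle spread by less than 2-fold for 8 of the 10 members. The other 2 were Synpo2 at 592.9, 529.3 and 1166.6 CPM, a highest over lowest of 2.20, and Mylk at 2756, 2002 and 4103 CPM, with 2.05; over all genes 27.2% spread by 2-fold or more. Without library 2 or without library 3, 0 members did. Library 3 was lowest for 5 members (Acta2, Actg2, Myh11, Tagln and Cnn1), as it was for 27.8% of genes, and highest for 4 (Des, Smtn, Synpo2 and Mylk), as it was for 56.9%. For Tagln the levels were 14200 and 15538 CPM, and only 7970.1 CPM in library 3. In Sparcl1/Mustn1 muscle the members with a 2-fold spread were Actg2 (3.23) and Smtn (2.31), again 2 of 10, where 36.9% of genes were. In Actg2/Des cells mitochondrial genes took 5.53%, 4.51% and 9.17% of UMIs, Fos stood at 3038, 2907 and 4235 CPM, and the median depth was 13988, 6665 and 5404 UMIs. Their part in the library differences was not tested. Fibroblast markers summed to 7801, 6679 and 8273 CPM in Actg2/Des muscle, with 7 of 7 at 10 CPM or more, and to 912.3, 753.2 and 1414 CPM in Sparcl1/Mustn1 muscle, and their part in the difference between kinds was not tested.

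Other genes of the machinery were taken from lists chosen by function, and their counts stand against the 14.8% higher and 15% lower of all genes, with a median of -0.02. Of 20 actin filament partners, 6 were at least 2-fold higher in Actg2/Des muscle (Tpm1, Tpm2, Cnn3, Pdlim3, Fhl1 and Pgm5) and 2 lower (Actn4 and Ldb3), with a list median of 0.28 on the log2 scale. Within each of the 3 libraries, Cnn3, Pdlim3 and Pgm5 were again 2-fold higher and Actn4 and Ldb3 2-fold lower. Tpm1 and Tpm2, tropomyosins that lie along actin filaments, were at 6270 and 5622 CPM against 3032 and 2533 CPM, but by library their ratios were 1.41, 1.64 and 2.02 for Tpm1 and 1.63, 1.72 and 1.64 for Tpm2. Caldesmon, Cald1, was at 2375 against 4086 CPM. Of 18 genes of myosin and its control, 0 were higher and 4 lower (Ppp1r12c, Ppp1cb, Rock1 and Prkg1), with a median of -0.51. Rock1, a kinase that restrains myosin phosphatase, was at 228.1 against 984.1 CPM, with ratios of 0.201, 0.194 and 0.230 by library, whereas the light chains Myl6 and Myl9 were at 7225 against 6430 CPM and 2928 against 2272 CPM. Of the 12 regulators of serum response factor and myocardin, 0 were higher and 4 lower (Mkl2, Klf4, Mef2c and Mef2d), of which Mef2c was 2-fold lower in each library. Myocd, the coactivator myocardin, was at 173.7 against 199.3 CPM, with 4.54 CPM in pericytes.

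Of 5 tested other actins and intermediate filaments, 0 were higher and 1 lower, the filament gene Nes, with 7.15 against 120.9 CPM. The list of 9 striated muscle genes was at or near 0 except for 4 that could be tested, of which Tnnt2, Ckm and Tnni2 were higher in Actg2/Des muscle and Myl1 was lower. In Sparcl1/Mustn1 muscle Ckm had 0 UMIs and Tnni2 had 2. Tnnt2, which encodes cardiac troponin T, was at 1179 (1133 to 1227), 1389 (1335 to 1443) and 672.8 (644.1 to 702.4) CPM in Actg2/Des muscle, and at 6.68 (0.809 to 24.1), 94.9 (53.1 to 156.6) and 16.2 (10.8 to 23.5) CPM in Sparcl1/Mustn1 muscle. It was seen in 643 of 911 cells of the first kind and in 29 of 663 of the second. These cells were not thinned, and the median depth of the kinds was 6705 and 2851 UMIs. Immune cells had 5.34 CPM of Tnnt2. The heart myosin gene Myh6 had 0 UMIs in both kinds, and Ttn, the giant sarcomere protein titin, had 0 and 1.

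**Figure D5:**
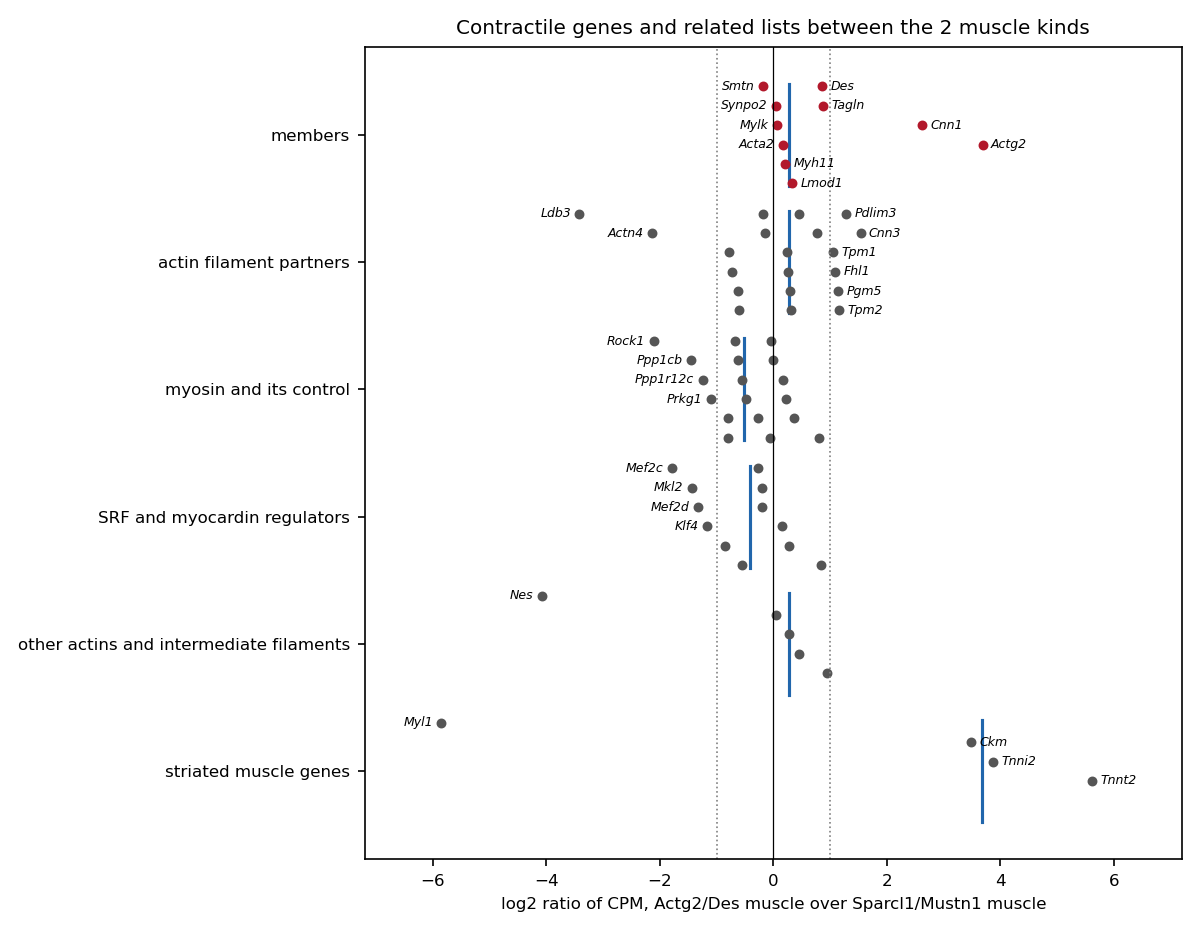
Log2 ratio of CPM between Actg2/Des and Sparcl1/Mustn1 muscle for the 10 members (red) and 5 related lists (grey), 1 point per tested gene, with the list median as a blue bar and dotted lines at 2-fold. Names are given for the 10 members and for genes past 2-fold, and Tnnt2, Actg2 and Cnn1 lie far to the right; Ckm and Myl1, which had 0 UMIs in 1 kind, are drawn at a floor of 3 UMIs.

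Over 35 combinations of class and library, the genes with the profile nearest to the mean of the 10 were Myl9 (Pearson 0.97), Flna (0.96), Ppp1r14a (0.95), Jph2 (0.94), Lpp (0.94), Mrvi1 (0.94), Pdlim3 (0.93) and Tpm2 (0.93). Of these 8 all but Lpp and Mrvi1 are markers by which muscle was named. Actg2 and Cnn1 were each other's nearest gene, at 0.96. Of the 10, Smtn was least like the mean of the other 9, at 0.85, and Myh11 and Acta2 most, at 0.97. These points share libraries and depth and are not independent.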

How the data were processed

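Dissociated gallbladder cells were profiled with 3′ droplet libraries on a Chromium instrument. The deposited matrix holds raw UMI counts; per the submitters' processing notes the authors used Cell Ranger 6.1.1 with GRCm38 (mm10). Barcodes under 300 detected genes or above 20% mitochondrial UMIs were left out, and 1024 doublets were removed with Scrublet (scanpy 1.11.5). Counts scaled to 10000 per cell, 2000 variable genes without the 10 members, 30 principal components and 15 neighbours gave Leiden clusters at resolution 1.0, without batch correction. Clusters needed 3 detected markers. Some limits of the naming rule were set after the data were seen, and 1058 cells stayed unnamed. Muscle subclusters were split at -1 on a log2 scale, with nearest muscle values 0.15 and -1.82. CPM came from summed counts, and genes were compared at 10 CPM and 20 UMIs in either class, by a 2-fold rule without a test. A gene low in either class could thus enter only through the other, where it was high. The named genes are the members, the 3 highest in muscle of each list, those singled out by counts of 5 or fewer and the 8 nearest profiles. The ratios were tested on simulated counts with known fold changes. A first, fixed pass limit was not met because it ignored counting error. It was replaced by a limit scaled to that error, with a check of bias beside it. The members and lists were chosen with earlier results of these data known.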

Additional observations from a re-analysis of the deposited data

Results flagged for a closer look

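The cells that stayed without a class name, which enter no comparison, held 4728 CPM of the 10 members together (4654 to 4803, exact Poisson 95%), above the level in immune cells. In 3 small muscle subclusters of 40, 12 and 11 cells the sum was 10603, 20591 and 29849 CPM, and the first of these also held 2949 CPM of the epithelial keratin gene Krt8. These subclusters held 9233, 1726 and 2835 of the 15593 member UMIs of the unnamed cells. The other unnamed clusters, of 657, 243 and 95 cells, were at 1013, 236.5 and 307.7 CPM.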

How the results depend on the processing

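No paired analysis was possible because no column carries a sample and the groups share only replicate number 1. The 10 members highest in a muscle kind, the 1 of 8 higher in Actg2/Des muscle, the 10 higher in Sparcl1/Mustn1 muscle than in pericytes and the 9 higher in fibroblasts than in immune cells had the same count under every alternative that pools libraries: gene minimum, mitochondrial limit, doublets, resolution, components, members among the variable genes, library weight, each library left out, and, where they apply, immune levels subtracted, single-cell gating and a 3-fold rule. The 4 higher in mesothelium became 2 with each library weighing the same, for which the cause was not tested, and were 3 to 4 with a library left out and 3 under the 3-fold rule. Comparing within each library, an alternative chosen after seeing the data, left the count between muscle kinds and that against pericytes as they were, but gave 3, 2 and 0 for mesothelium and 9, 9 and 5 for fibroblasts in libraries 1, 2 and 3. The 2 that spread by 2-fold between libraries became 1 with single-cell gating, for which the cause was not tested, 0 under the 3-fold rule, and 0 to 2 with a library left out: 0 without library 2 or library 3. The log2 ratio between kinds kept its side of the 2-fold rule for Actg2 (3.69, and 3.04 without library 3), while that of Des, 0.86, passed 2-fold without library 3 (1.08) and with single-cell gating (1.58), which uses Des itself. The signs for Smtn, Synpo2 and Mylk, all within 2-fold, changed between alternatives. Single-cell gating placed 81.8% of gated cells in the kind of their subcluster, with 343 of 1574 muscle cells within 0.5 of the limit. Shares of cells with a UMI depend on depth. Sparcl1/Mustn1 muscle has 35 and 50 cells in libraries 1 and 2, which limits its precision there.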
